A study of Homo sapiens with 6 samples.

Results

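The comparison was between untreated SLFN11 knockout cells and untreated parental cells, 1 library of each of the 6 in the series. CCRF-CEM, the cell line used, is a long-established leukemia line of human T lymphoblasts, and acetylation of histone H3 at lysine 27 (H3K27ac) was read by chromatin immunoprecipitation and sequencing. The parental library came from wild-type cells given the vehicle DMSO, and the knockout library from SLFN11 knockout cells given the same vehicle. The other 4 libraries, used here only to see whether a difference recurred, were parental and knockout cells given 100 nM camptothecin, a topoisomerase I inhibitor, for 2 h and for 4 h. The labels carry 1 code name (CB45) for all 3 knockout libraries and do not say whether it is a single clone, so the genotype and the history of that culture cannot be told apart. With 1 library per group, no spread between replicates exists, and no standard error or p-value was computed.

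H3K27ac is deposited at active promoters and enhancers, and the strength of its peaks follows the activity of the nearby regulatory DNA. SLFN11 is a member of the Schlafen family that binds chromatin at stalled replication forks and makes cells sensitive to drugs that damage DNA during replication. CCRF-CEM cells resemble early thymocytes, in which CD1 surface proteins and the RAG recombinase are typical products.

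Both lists were reduced to the 30000 peaks of smallest p on chromosomes 1 to 22 and X, because the knockout list is longer (267480 peaks there against 171713). The peak at rank 15000 had a −log10 p of 6.84 in the knockout control and 6.42 in the parental control, as the authors deposited it. Merging the 2 lists gave 37295 regions. Each library was ranked over these same regions, 1 being the strongest, and every rank below is a place in that order. Where a library has no deposited peak in a region, this is said in place of a rank. The knockout 4 h library stood apart from the other 5, with a −log10 p of 4.55 at rank 15000 against 5.88 to 7.32, so its values are given beside the others but carry no count unless stated. Read depth is not in the lists and is unknown.

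SLFN11 itself kept a strong acetylated region at its start in all 6 libraries. That region (hg19, chr17:33700029-33701735) ranked 2433 in the parental control, 2933 at 2 h and 4020 at 4 h, and 1235 in the knockout control, 740 at 2 h and 1548 at 4 h. All 3 knockout libraries placed it higher than all 3 parental libraries. Acetylation at a promoter does not read the deleted sequence or the protein, so this neither checks nor contradicts the knockout label. Its RefSeq promoter, on the minus strand of GRCh38.p14 at chr17:35373572-35373871, is shown because this is the targeted gene and its mark remained. Capitals here and in the 3 promoters shown further on mark matches on either strand to GGGCGG (GC box), CCGGAAG (ETS), TGTGGT (RUNX), CCAAT or TATAAA.
SLFN11: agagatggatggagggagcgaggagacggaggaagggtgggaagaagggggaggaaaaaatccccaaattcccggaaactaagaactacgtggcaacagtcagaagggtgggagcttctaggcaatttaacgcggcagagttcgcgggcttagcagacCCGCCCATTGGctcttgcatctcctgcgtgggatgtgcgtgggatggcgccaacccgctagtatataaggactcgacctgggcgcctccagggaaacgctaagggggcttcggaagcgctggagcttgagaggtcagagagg
It holds 1 GC box and 1 CCAAT box, which lie next to each other, and 18 CG pairs. Of 35116 RefSeq promoter windows of this length, 44.95% hold GGGCGG, 34.6% CCAAT, 13.1% TGTGGT, 11.5% TATAAA and 10.3% CCGGAAG, and the median count of CG pairs is 14.

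The other Schlafen genes lie beside SLFN11 on chromosome 17. SLFN5, an interferon-induced family member, ranked 4743, 4956 and 5655 in the parental libraries (control, 2 h, 4 h), and 3823, 5342 and 5651 in the knockout libraries, so the genotypes overlapped. SLFN13, a family member that cleaves transfer RNA, ranked 12180, 11350 and 11601 in the parental libraries (control, 2 h, 4 h) and 12956, 15273 and 17376 in the knockout ones. For SLFN13 all 3 knockout libraries lay below all 3 parental ones. SLFN12 ranked 14531 in the parental control and 13813 in the knockout control. For SLFN12L the strongest region lies beside the gene, towards SLFN14 (chr17:33867542-33869787), and ranked 19210 and 13886. Regions inside SLFN12L went the other way, at 28161 and 21310 in the parental control and 32905 and 32177 in the knockout control. They are only in the parental list, so that direction was fixed in advance. SLFN14 had no region within 5 kb. Of the 5 genes with a region in both lists, 4 ranked higher in the knockout control by their strongest region and 1 lower. The median shift was 920 places towards the knockout, against −26.5 places over all 22480 regions present in both lists.

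The same stretch held 1 of the strongest peaks marked only in the knockout control. It lies between SLFN11 and SLFN12 (chr17:33720965-33721729). It ranked 10851 in the knockout control and 29965 in the parental control, then 13514 and 19396 in the parental 2 h and 4 h libraries and 17854 and 14753 in the knockout ones. In the 2 h pair the order was reversed, and in the 4 h pair it was kept at a smaller distance. A peak between UNC45B and SLFN5 (chr17:33544882-33545502) recurred instead, at 14597 and 13954 in the knockout control and 2 h libraries against 29897, 32908 and 31219 in the parental libraries. It had no deposited peak in the knockout 4 h library.

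The 2 untreated libraries were alike at the level of whole lists. Of the 30000 strongest knockout control peaks, 22600 overlapped 1 of the 30000 strongest parental control peaks by at least 1 bp, or 75.3% (Wilson 95% interval 74.8 to 75.8, counting error over peaks only). In the other direction the share was 75.3% (22585 peaks). To find clear differences, a peak was called marked only in a library when it was among its 15000 strongest and overlapped none of the 30000 strongest of the other. By this rule 166 peaks, or 1.11% of those tested, were marked only in the knockout control, and 156, or 1.04%, only in the parental control.

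These counts lie within the range of those between libraries of the same genotype. Leaving out the knockout 4 h library, the same rule gave 46 to 379 peaks, with a median of 209, in the 8 ordered pairs of the same genotype, and 156 to 426, with a median of 260.5, in the 12 ordered pairs of different genotype. Parental control against parental 2 h gave 263 peaks, and parental 2 h against parental control 379. The knockout control and knockout 2 h libraries were the closest pair, with 102 and 46. Every pair of the same genotype also differs in camptothecin treatment or its time, so none is a pair of replicates. The untreated pair of genotypes, at 166 and 156, lay above the knockout pair and below every parental pair, the lowest of which gave 178. By its number of called peaks it thus lies within the range of such pairs. How far replicates would differ is not known.

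**Figure D1:**
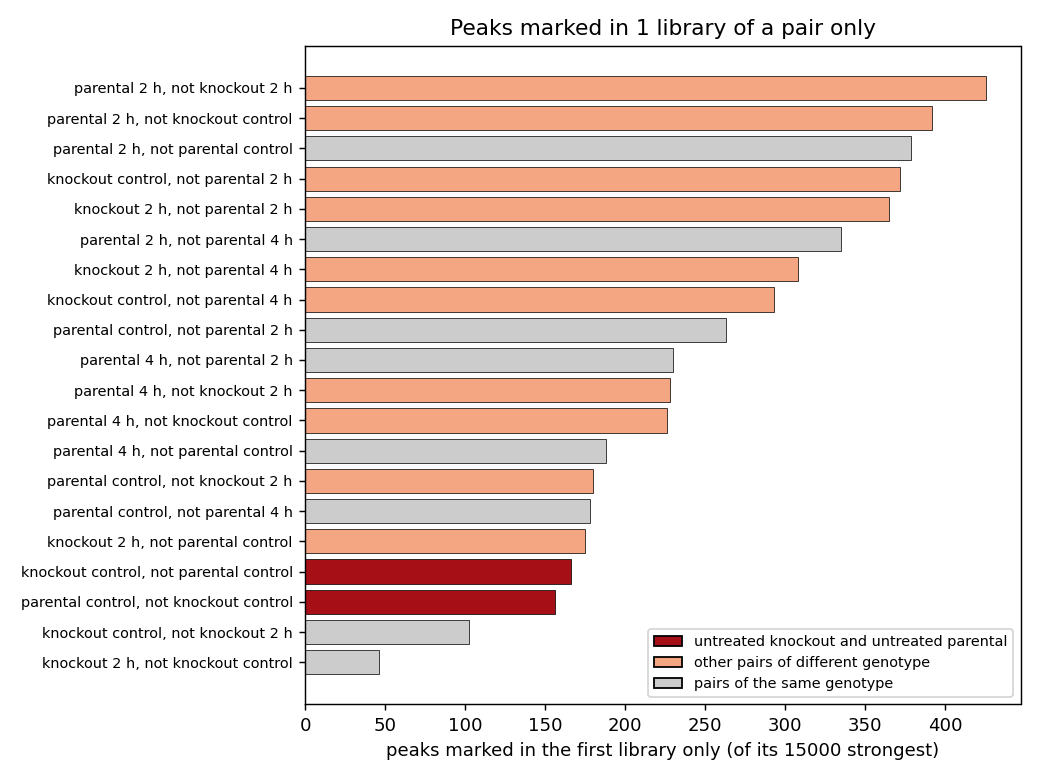
Number of peaks among the 15000 strongest of the first library that overlap none of the 30000 strongest of the second, 1 bar per ordered pair of 5 libraries (knockout 4 h left out). The untreated knockout and parental pair, at 166 and 156, sits among the lower bars.

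Most called peaks were weak in the other library and not missing from it. Of the 166 knockout control peaks, 149 overlapped a weaker deposited parental control peak and 17 overlapped none. Of the 156 parental control peaks, 146 overlapped a weaker knockout control peak and 10 overlapped none. In 66 and 68 of them, respectively, the other library's peak stood within the 10000 places after the 30000 strongest of its list, just outside the limit. They were also narrow, with a median width of 506 bp for the knockout control and 391.5 bp for the parental control, against 1120 and 1171 bp for all peaks in the middle range of their ranks.

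The treated libraries gave a separate reading of the same loci. Of the knockout control's 166 peaks, 80.7% were among the 30000 strongest of knockout 2 h, 46.4% of parental 2 h and 52.4% of parental 4 h. Of the parental control's 156, 62.2% were among the 30000 strongest of parental 2 h, 68.6% of parental 4 h and 48.7% of knockout 2 h. In the 2 h pair, 111 of the 166 (66.9%) ranked higher in the knockout and 100 of the 156 (64.1%) higher in the parental library. Over all 37295 regions those shares were 48.8% and 51.2%. So the direction of the untreated pair repeated in the 2 h pair for about as large a share on both sides, and did not for the rest.

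A narrower group held in every library but knockout 4 h, which was not used. Among the knockout control's 166, 44 peaks (26.5%) were among the strongest 30000 of knockout 2 h and of neither treated parental library. Among the parental control's 156, 30 (19.2%) were in both treated parental libraries and not in knockout 2 h. The same patterns held for 0.86% of all 15000 strongest knockout control peaks and 0.553% of the parental ones. Those shares include the called peaks and are not matched to them in rank. Of all 15000, 97.5% of the knockout control peaks were among the 30000 strongest of parental 2 h. For the parental control, 98.8% were among those of knockout 2 h. The size of the difference is therefore not read. At the other end, 40 of the 166 and 46 of the 156 were present in all 3 of parental 2 h, parental 4 h and knockout 2 h, and so were missing only from the strongest peaks of 1 untreated library.

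The strongest peak marked only in the knockout control (chrX:135755964-135756392) lies in ARHGEF6, an exchange factor for Rac next to the gene of CD40 ligand. It ranked 31671 in the parental control and 7833 in the knockout control, then 21001 and 16500 in parental 2 h and 4 h and 10316 and 24514 in knockout 2 h and 4 h. A peak at the start of RAG1 (chr11:36589278-36589602), the recombinase that assembles antigen receptor genes, ranked 8613 in the knockout control and 29963 in the parental control. In parental 2 h and 4 h it ranked 11334 and 14696, close to 10499 in knockout 2 h, so the parental control was the low one.

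A peak beyond CD1E (chr1:158340761-158341643) followed the genotype. It ranked 9422, 10234 and 18242 in the knockout control, 2 h and 4 h and 31551, 29146 and 22630 in the parental control, 2 h and 4 h, with no overlap between the genotypes. A peak beyond PTPRC, the gene of CD45 (chr1:198952888-198953410), ranked 9865 and 6850 in the knockout control and 2 h and 30842 and 30598 in the parental control and 2 h, but 16425 in parental 4 h against 17404 in knockout 4 h. A peak in STAU2, a gene of an RNA-binding protein (chr8:74364133-74364820), was 1 of the 44 that held. It ranked 10982, 10941 and 18041 in the knockout libraries, 33833 and 30640 in the parental control and 4 h, and had no deposited peak in parental 2 h.

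At F13A1, between SCCPDH and AHCTF1 and between SOX8 and SSTR5, the parental control was the low one and parental 2 h ranked close to the knockout control. At F13A1, which encodes a coagulation factor subunit (chr6:6261228-6262556), the parental control had no deposited peak, while parental 2 h and 4 h ranked it 10806 and 12034 and the knockout control 10463. In AHI1, beyond MYB (chr6:135647660-135648050), the knockout control and 2 h ranked it 10527 and 11661, and the parental libraries 31793, 30384 and 15576. Knockout 4 h had no deposited peak there, so the 4 h pair went the other way. In KLF7, which encodes a zinc finger factor (chr2:208008050-208008875), ranks were 10919, 8436 and 13219 in the knockout and 35560, 19936 and 30940 in the parental libraries. The genotypes did not overlap at KLF7. The remaining ones lie in TCF7L2, in DAP, between SCCPDH and AHCTF1, between NR3C1 and HMHB1 and between SOX8 and SSTR5, where the knockout control ranked between 9658 and 10930 and the parental control between 30851 and 32866. In the 2 h pair the order was reversed in TCF7L2 (parental 13505, knockout 19735) and between NR3C1 and HMHB1 (22089 and 28358). It was also reversed between SCCPDH and AHCTF1 (11086 and 11556) and between SOX8 and SSTR5 (8353 and 13307). In DAP it was kept (23195 and 8502).

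One of the 15 stands apart by its own values. The peak between CELSR1 and GRAMD4 (chr22:47005007-47005661) had a deposited fold of only 1.07 with a −log10 p of 14.3, against folds of 2.55 to 7.06 for the other 14, and no other library has a deposited peak there.

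On the parental side the strongest peak lies in VPS53, a subunit of a complex that tethers vesicles to the Golgi (chr17:436696-438396). It ranked 9753, 16903 and 14633 in the parental control, 2 h and 4 h libraries and 29984, 21436 and 33376 in the knockout libraries, so the genotypes did not overlap. In SH3KBP1, an adaptor of receptor endocytosis (chrX:19584002-19585683), ranks were 10746, 16155 and 14455 in the parental and 30531, 25086 and 28823 in the knockout libraries. FOXP1, a forkhead factor of lymphoid development (chr3:71113247-71114830), ranked 11535, 12945 and 12597 in the parental and 30956, 19128 and 16358 in the knockout libraries. At these 3 loci every knockout library ranked below every parental one.

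Among those 15, 2 peaks had no deposited peak in any knockout library. The first lies in RNF187, a ubiquitin ligase gene (chr1:228677797-228678679), and ranked 9965, 12157 and 15574 in the parental control, 2 h and 4 h. The second lies between LY6H and GPIHBP1 (chr8:144259896-144260237) and ranked 11130, 13816 and 13712. Outside the 15, a peak beside BHLHE23 (chr20:61656836-61657802) behaved alike at 12868, 12756 and 13064. In all, 5 of the 156 parental peaks overlapped no deposited peak of any knockout library, and 6 of the 166 knockout peaks none of any parental library. Of those 6, 3 were also among the strongest 30000 of knockout 2 h: a peak between UBE2E2 and UBE2E1 (chr3:23700747-23701192), 1 beyond PDE10A (chr6:166254620-166255057) and 1 within the V segments of the T cell receptor beta locus (chr7:142047942-142048182), with ranks of 13545, 13600 and 14563 in the knockout control.

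Another 4 of the parental 15 lie near centromeres, at chr16:32044408-32044691, chr16:32987964-32988255, chr16:33679462-33679745 and chr1:143462664-143463128. No gene was named there, and these stretches hold near-identical copies to which reads are hard to assign. The chr16 peaks at 32987964 and 33679462 had the same rank, 27138, in parental 2 h and again, 19402, in parental 4 h. The others of the 15 lie in PLIN5, TNIP3 and ADAMTS12 and between TNFSF8 and TNC, UBE2E3 and ITGA4, and MUCL1 and TESPA1. Knockout 2 h ranked PLIN5 at 17184, the UBE2E3 to ITGA4 peak at 16553 and the MUCL1 to TESPA1 peak at 15102, against 31029, 32396 and 31936 in the knockout control. Parental 2 h ranked these 3 at 17870, 18595 and 21367, below knockout 2 h. The order was also reversed at 2 h in TNIP3 (parental 33504, knockout 24350) and at the chr16 peak at 33679462 (27138 and 24873). It was kept in ADAMTS12 (27752 and 32682) and between TNFSF8 and TNC (24218 and 34169).

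**Figure D2:**
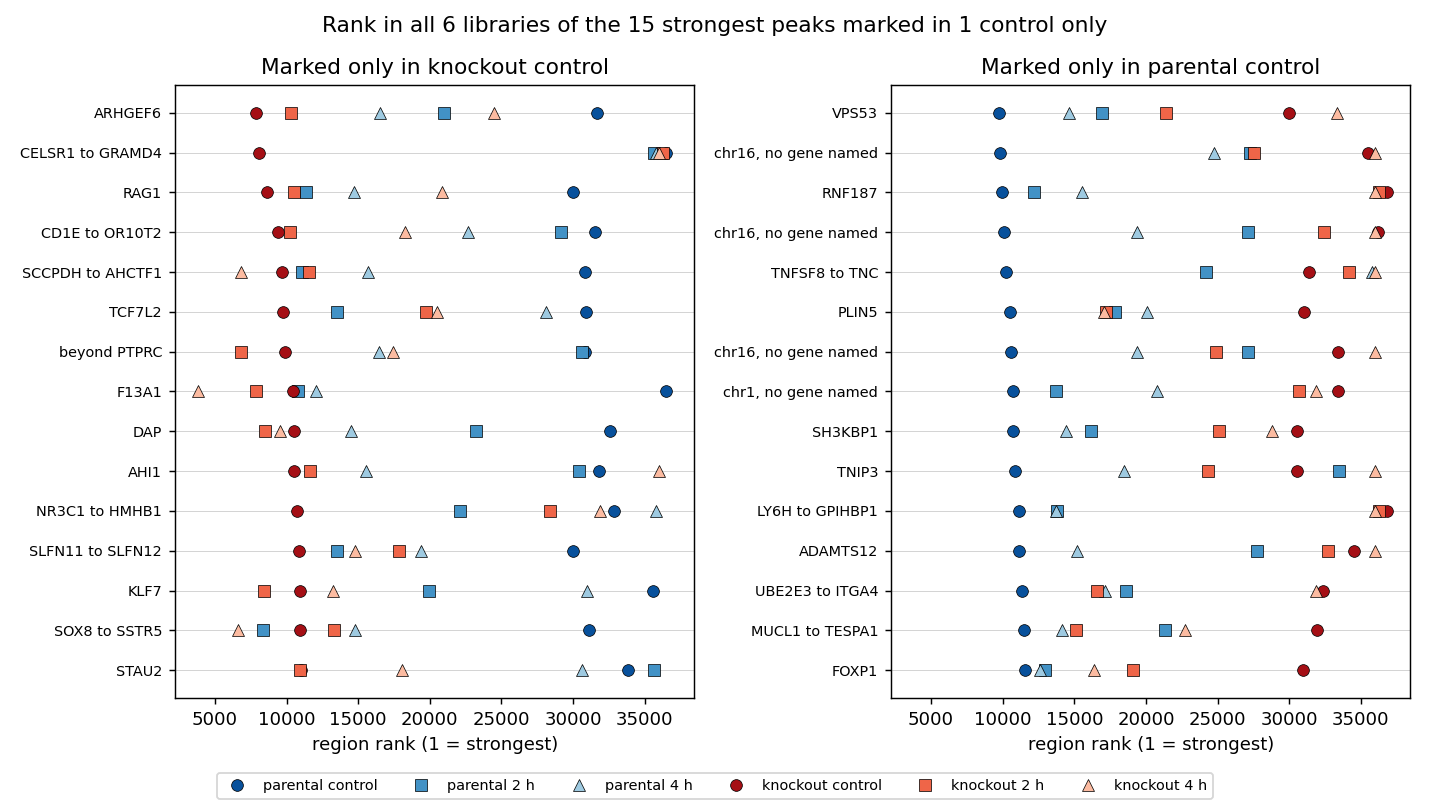
Region rank (1 the strongest) in the 6 libraries, 1 point each, of the 15 strongest peaks marked only in the knockout control (left) and only in the parental control (right). The treated libraries of the same genotype often sit between the untreated 2, and RNF187 and the peak between LY6H and GPIHBP1 lie at the weak end in all 3 knockout libraries, which have no deposited peak there.

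CD244, an immune receptor of natural killer and T cells, gave the plainest promoter in which the mark was lower in all knockout libraries. The peak over its start (chr1:160830879-160832700) ranked 11623, 10362 and 13069 in the parental control, 2 h and 4 h libraries and 34625, 31269 and 30013 in the knockout control, 2 h and 4 h. A second peak in the gene (chr1:160824291-160825930) ranked 14602, 16356 and 16563 in the parental and 32366, 33015 and 31856 in the knockout libraries. Both were among the 30 that held, and CD244 was named after its values were seen. Its promoter lies on the minus strand of GRCh38.p14 at chr1:160862838-160863137.
CD244: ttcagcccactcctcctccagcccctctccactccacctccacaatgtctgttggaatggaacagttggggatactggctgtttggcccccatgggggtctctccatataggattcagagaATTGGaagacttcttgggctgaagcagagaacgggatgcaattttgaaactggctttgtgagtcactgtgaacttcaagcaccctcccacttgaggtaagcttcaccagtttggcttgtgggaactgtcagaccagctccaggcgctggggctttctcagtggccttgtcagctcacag
This window holds 1 CCAAT box and only 2 CG pairs.

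Other gene starts with the same pattern, also chosen after their values were seen, belong to ADAMTS6 (a metalloprotease), ACADS (short-chain fatty acid oxidation) and TCP11. ADAMTS6 ranked 13380 in the parental control and 31072 in the knockout control, ACADS 14864 and 30176, and TCP11 13064 and 33048. A further 2 of the 30 lie next to each other, in SMG9 (chr19:44251426-44252925) and in KCNN4, a potassium channel gene of activated lymphocytes (chr19:44268816-44270915). They ranked 13215 and 12299 in the parental control and 33633 and 31243 in the knockout control. No locus held 3 or more peaks marked only in the same library within 200 kb, the most being 2 on either side.

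Among the regions present in both lists the ranks shifted in both directions alike. The shift is the parental rank minus the knockout rank, so a positive value is a region placed higher in the knockout. Its middle range over the 22480 regions ran from −1446 to 1420 places. More than 5000 places separated the 2 libraries in 1680 regions (7.47%) towards the knockout and in 1741 (7.74%) towards the parental control. In the 2 h pair, 65.5% of the first group and 57.2% of the second shifted the same way, against 51.0% and 48.9% of all regions, and 618 (36.8%) and 435 (24.99%) did so by more than 5000 places, against 11.3% and 7.65% of all.

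The widest shift towards the knockout control lay between RASSF8 and BHLHE41 on chromosome 12 (chr12:26266896-26267620). BHLHE41 encodes a repressor of the circadian clock. Ranks there were 29477, 16625 and 23323 in the parental control, 2 h and 4 h libraries and 9672, 10262 and 20380 in the knockout libraries. A region in MSI2, an RNA-binding regulator of blood progenitors (chr17:55547890-55550207), ranked 28934, 20767 and 18860 in the parental and 12453, 11404 and 9271 in the knockout libraries. At both regions the untreated and the 2 h knockout library ranked above all parental ones.

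Not all of the 10 held. A region in DST, which encodes a linker of the cytoskeleton (chr6:56536802-56539234), ranked 25999 in the parental control and 9293 in the knockout control, but 10751 in parental 2 h and 12541 in knockout 2 h. Those between SUCNR1 and MBNL1, in RHBDL2, between NOX3 and ARID1B and between CLEC2D and CD69 also reversed in the 2 h pair. The region past SLC1A3 shifted the same way, by 3428 places. So did 1 in ANKRD36B, by 10455, but that gene has near-identical copies and its value is uncertain.

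Towards the parental control the widest shift, of −24221 places, lay in BRF1, which encodes a subunit of the RNA polymerase III initiation factor (chr14:105741566-105743956). It ranked 2763, 4209 and 2618 in the parental control, 2 h and 4 h libraries and 26984, 22574 and 16654 in the knockout libraries. A second region in the gene (chr14:105749430-105750947) was marked only in the parental control, at 12630 against 33442 in the knockout control, and further along, past TMEM121 towards the immunoglobulin heavy chain constant genes (chr14:106025071-106026793), the ranks were 10255 and 28344. Between these, a peak at chr14:105880824-105881572 was marked only in the knockout control, at 13893 against 33106. The stretch therefore did not move as 1 block.

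At the start of ZNF135, a zinc finger gene of chromosome 19 (chr19:58570030-58571208), ranks were 11150, 8466 and 9751 in the parental and 28604, 35006 and 23801 in the knockout libraries. The region between ETS2 and PSMG1 (chr21:40246153-40248972) ranked 12074, 13582 and 17543 in the parental libraries and 29576, 26234 and 6759 in the knockout libraries, low at 0 h and 2 h and high at 4 h. At the start of HLA-DMB, a chaperone of peptide loading on HLA class II (chr6:32908383-32909460), the parental libraries ranked 13362 and 19248 at control and 4 h with no deposited peak at 2 h, and the knockout ones 29871, 22752 and 22111. The direction at HLA-DMB was thus reversed in the 2 h pair. Those in CD226, BABAM2 and WDR62 and between BLOC1S4 and KIAA0232 reversed in the 2 h pair, and that between ATL2 and HNRNPLL kept its direction, at −3371 places.

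Next, stretches of neighbouring regions that moved together were sought, since a gain or loss of a chromosome segment could move its regions together. Of 22043 windows of 20 consecutive shared regions, 266 (1.21%) had a median shift of at least 2000 places towards the knockout control and 81 (0.367%) towards the parental control. The 2 h pair gave 838 and 161, and parental 2 h against parental 4 h gave 61 and 65. Merged, the untreated pair's windows formed 35 stretches stronger in the knockout, of 0.668 to 15.6 Mb, and 20 stronger in the parental control. In the 2 h pair, 27 of the 35 and 16 of the 20 had a median shift of the same sign, and 17 and 2 of at least 1000 places. The 2 h pair itself leaned towards the knockout, by 838 windows to 161. No share over all windows is set beside these repeats, so nothing is read from their number or from 17 against 2.

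The CD1 gene cluster on chromosome 1 lies in 1 of the 17 (chr1:156736500-159895412). CD1 proteins present lipid antigens and are typical of cortical thymocytes. Over the cluster and its flanks, 35 regions were ranked, of which 31 stood higher in the knockout control, 29 in the 2 h pair and 26 in both. Regions in only 1 of the 2 lists had their untreated direction fixed in advance. Among the 25 in both lists, 21 stood higher in the knockout control. Of the 25 regions in both lists, both the knockout control and knockout 2 h ranked above all 3 parental libraries in 16, and below all 3 in 0. Over all regions in both lists these shares were 15.4% and 14.3%. In the 2 h pair, 22 of the 25 ranked higher in the knockout, against 11471 of all 22480. The stretch was chosen by its ranks in the untreated pair and kept among the 17 by its shift at 2 h. Nothing is therefore read from either difference.

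The ranks of single CD1 genes follow. The start of CD1D (chr1:158150033-158153768) ranked 6081, 6465 and 6532 in the parental control, 2 h and 4 h libraries and 2204, 2143 and 2114 in the knockout libraries. In CD1C (chr1:158262138-158262720) the ranks were 6237, 6918 and 9785 against 3552, 2587 and 5452, and in CD1B (chr1:158298956-158300385) 4595, 6746 and 7635 against 2063, 1581 and 5301. The strongest region of the cluster lies in CD1E (chr1:158325435-158326014), at 287, 580 and 1595 in the parental and 140, 126 and 433 in the knockout libraries. CD1D and CD1C separated the genotypes in all 6 libraries. CD1B and CD1E did so only without the knockout 4 h library. The region at the CD1E start (chr1:158322784-158324511) ranked 9443, 6946 and 9373 in the parental and 6461, 6961 and 5896 in the knockout libraries, which overlapped. Its promoter, on the plus strand of GRCh38.p14 at chr1:158353644-158353943, is shown for the gene that carries the cluster's strongest mark.
CD1E: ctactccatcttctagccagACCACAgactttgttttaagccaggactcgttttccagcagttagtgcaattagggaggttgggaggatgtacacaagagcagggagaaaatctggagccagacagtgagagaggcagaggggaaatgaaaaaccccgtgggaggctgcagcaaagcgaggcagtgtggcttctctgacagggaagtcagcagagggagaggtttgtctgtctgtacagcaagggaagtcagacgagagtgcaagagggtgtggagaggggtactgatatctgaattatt
It holds 1 RUNX match and 4 CG pairs.

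Of the 2 stretches that repeated in the other direction, 1 was the zinc finger gene cluster near the end of chromosome 19 (chr19:57106318-58666717), whose products bind DNA and mostly repress transcription. Of its 38 regions in both lists, 31 ranked lower in the knockout in the untreated pair and 31 in the 2 h pair, with median shifts of −1924 and −1800 places. Over all 22480 regions, 48.9% ranked lower in the knockout at 2 h. The untreated pair and the 2 h pair both took part in choosing the stretch, so nothing is read from that difference. In 23 of the 38 the knockout control and knockout 2 h both ranked below all 3 parental libraries and in 0 above. These counts rest in part on the ranks that chose the stretch, so they are given with no comparison.

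The regions that ranked lower included gene starts. Of 23 starts of named genes with a region there, 20 were lower in the knockout control, 22 in knockout 2 h, and 17 were lower in both than in every parental library. Over all regions in both lists the last share was 14.3%. The starts lie in a stretch chosen by these same ranks and were not compared with its other regions, so nothing is read from their counts. In the untreated pair 4 of the 23 fell by more than 5000 places, namely ZNF135, ZIK1, ZNF419 and ZNF329. Over all regions in both lists 7.74% did so. ZIK1 ranked 13579, 13761 and 10550 in the parental and 25399, 20407 and 25000 in the knockout libraries. ZNF329 ranked 7200, 7452 and 6326 against 16945, 12642 and 33925, and ZNF773 2477, 1869 and 3294 against 5364, 4060 and 6321. ZNF671 ranked 4139, 2920 and 3434 against 6447, 4188 and 9481. At ZNF17 the order was not kept, with 14174, 10477 and 8341 in the parental and 11671, 12307 and 18838 in the knockout libraries. Just outside the stretch, ZNF471 (chr19:57018981-57019786) was marked only in the parental control, at 13966, 9130 and 7728 against 30990 and 31425, and without a deposited peak in knockout 4 h. The promoter of ZNF135, on the plus strand of GRCh38.p14 at chr19:58058989-58059288, is shown because it fell the furthest of these starts.
ZNF135: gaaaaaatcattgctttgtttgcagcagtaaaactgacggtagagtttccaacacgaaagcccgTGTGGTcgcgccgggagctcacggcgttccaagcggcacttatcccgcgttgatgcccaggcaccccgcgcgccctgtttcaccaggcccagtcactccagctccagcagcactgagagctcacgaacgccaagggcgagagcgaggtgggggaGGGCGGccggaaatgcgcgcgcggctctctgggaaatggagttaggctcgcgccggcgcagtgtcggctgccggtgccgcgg
It holds 1 GC box, 1 RUNX match and 32 CG pairs, where the CD244 window above, also lower in the knockout, has 2.

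**Figure D3:**
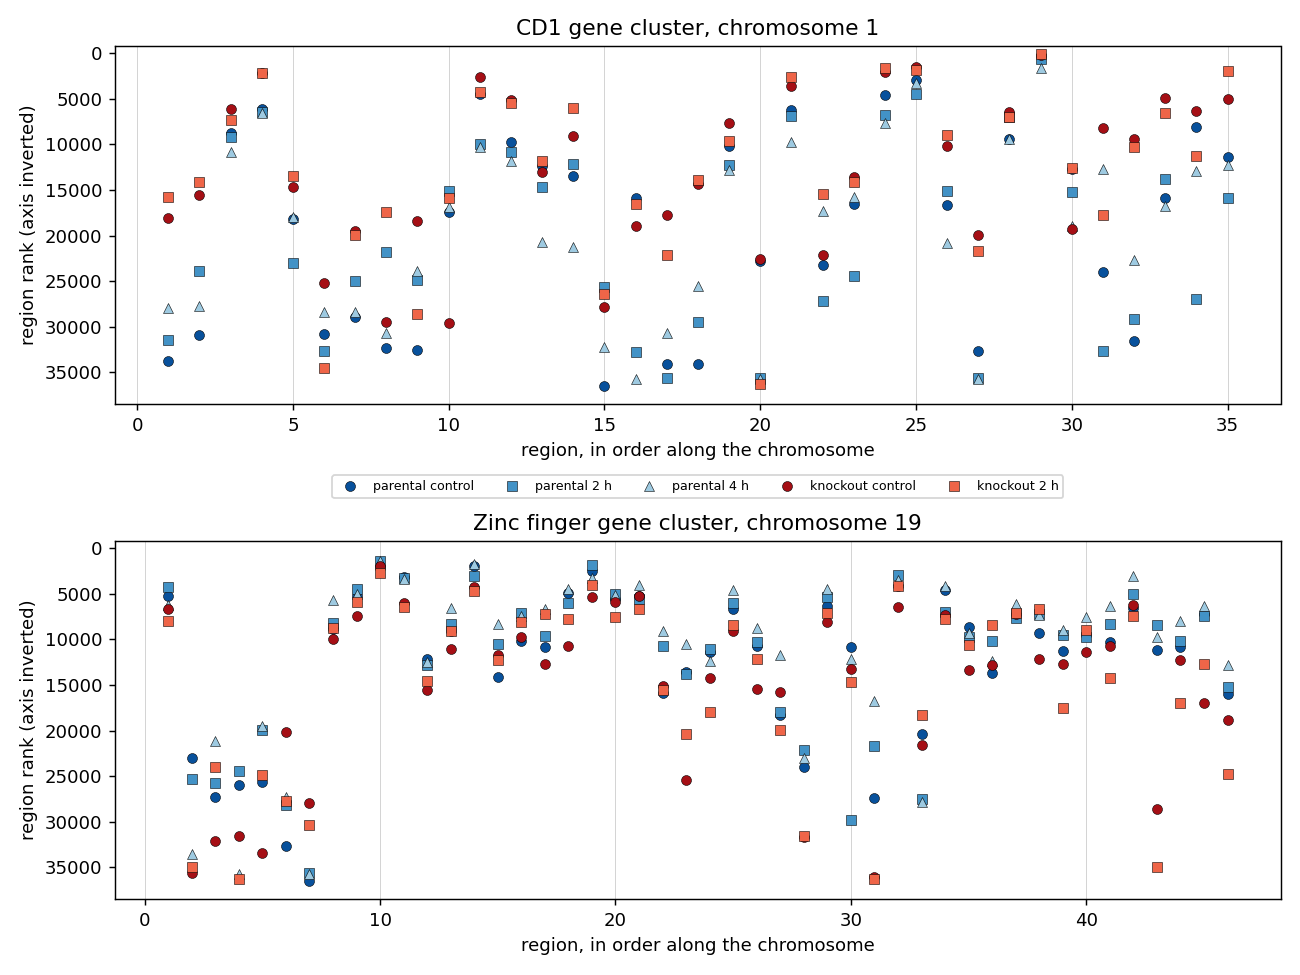
Region rank (inverted axis) of 35 consecutive regions over the CD1 genes (top) and 46 over the chromosome 19 zinc finger genes (bottom), in order along the chromosome, in 5 libraries (knockout 4 h left out). Knockout points lie above parental points in most CD1 regions and below them in most zinc finger regions.

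Around RAG1 and RAG2 (chromosome 11), a locus chosen after its values were seen, 11 of 12 regions ranked higher in the knockout control and 11 in the 2 h pair, but only 5 were in both lists. Of those 5, 4 were higher in each pair, against 11028 and 11471 of all 22480 regions. The stretch that holds both genes (chr11:34937185-43666357) shifted by 1821 places in the untreated pair and by 585 at 2 h, and so is not among the 17. The strongest, in RAG1 (chr11:36590458-36591045), ranked 2617, 6808 and 4905 in the parental and 3035, 1459 and 8012 in the knockout libraries, which overlapped. Wider differences lay in IFTAP beyond RAG2, as at chr11:36627625-36627977, with 31318, 24312 and 31887 in the parental and 14496, 10667 and 18120 in the knockout libraries. Those regions are only in the knockout list, so their untreated direction was fixed in advance. The IFTAP regions in both lists overlapped between genotypes. At chr11:36620455-36622076 the ranks were 15874, 13092 and 22759 against 10640, 11368 and 16677. At chr11:36623073-36623564 they were 10899, 12961 and 10129 against 9490, 11540 and 19528.

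The 17 stretches that repeated also include those that hold SATB1, an organizer of thymocyte chromatin (chr3:17783396-23112793), MYC with PVT1 and CCDC26 (chr8:126595012-131260723), MSI2 (chr17:55010553-55946722) and ARHGEF6 (chrX:134048344-146595485). In the MYC stretch 32 of 47 regions in both lists ranked higher in the knockout control and 35 in knockout 2 h. The median shifts were 2177 and 3135 places. Over all 22480 regions the counts were 11028 and 11471. Ranks of both pairs chose the stretch, so nothing is read from that difference. Of 5 regions in PVT1, 4 were lower in the knockout control and 5 at 2 h. Those 4 are only in the parental list, so their direction in the untreated pair was fixed in advance. One of the 4 (chr8:128971213-128973857) ranked 18526, 20904 and 22217 in the parental and 31102, 27297 and 29135 in the knockout libraries. The PVT1 region in both lists (chr8:129104646-129105167) ranked 16519 in the parental control and 13376 in the knockout control. At 2 h it ranked 21819 and 27646. MYC itself ranked 19073, 16694 and 17441 in the parental and 16824, 14530 and 18249 in the knockout libraries, which overlapped. In SATB1 a region inside the gene (chr3:18411167-18412486) ranked 7638, 4228 and 7765 in the parental and 1080, 648 and 3600 in the knockout libraries, while the strongest parental region of the gene (chr3:18465693-18467640) ranked 1617, 1978 and 2804 against 2601, 2195 and 2753. The shift within SATB1 thus belonged to part of its regions. The other parental stretch that repeated holds CD34 and PLXNA2 (chr1:208035101-211527802), at −1980 and −1952 places.

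Weak peaks were counted as a second reading, since their number could also rise with the number of DNA copies. That link was assumed and not tested. The control sample of the peak calls is not given, and rank 150000 fell at a −log10 p of 1.63 in the parental and 1.75 in the knockout control. A ratio of weak peaks therefore need not follow copy number. Those after the 30000 strongest and down to rank 150000 were counted in bins of 5 Mb. Of 595 bins with at least 50 such peaks in the 2 libraries together, 46 (7.73%) had at least 1.3 times as many in the knockout control as in the parental control, and 1 (0.168%), at 40 to 45 Mb of chromosome 10, had 100 against 132. The same rule gave 36 and 28 bins in the 2 h pair and 17 and 6 for parental 2 h over parental 4 h. The 46 bins were sparse, with a median of 68.5 weak parental control peaks against 177 over all bins.

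Adjacent bins formed 7 pairs, and none of them reached 1.3 at 2 h. The pair at 80 to 90 Mb of chromosome 1 had 162 and 220 peaks in the parental and knockout control, and the 1 at 85 to 95 Mb of chromosome 3 had 87 and 126. On chromosome 4 at 60 to 70 Mb the counts were 100 and 150, and on chromosome 9 at 40 to 50 Mb 343 and 447. The other 3, at 80 to 90 Mb of chromosome 12, 5 to 15 Mb of chromosome 21 and 50 to 60 Mb of chromosome X, had ratios of 1.37, 1.37 and 1.40. In the 2 h pair the 7 ratios ran from 0.779 to 1.15. Single bins that reached 1.3 in both pairs numbered 5 of the 46, and 56.5% of the 46 were above 1 at 2 h, against 54.1% of all bins.

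Whole chromosomes differed little. Weak peaks of the knockout control over the parental control ran from 0.894 on chromosome 19 to 1.11 on chromosome X, and at 2 h these 2 stood at 0.929 and 0.990. The median shift of regions ran from −224.5 places on chromosome 22 to 294 on chromosome X, and at 2 h these were −5 and 60.

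Rank and weak peaks were then read together over the stretches. Of the 17 that repeated towards the knockout, 3 had at least 1.3 times the weak peaks in both pairs. On chromosome 12 (chr12:22198987-27677496), which holds RASSF8 and BHLHE41, there were 166 weak peaks in the parental control and 227 in the knockout control, a ratio of 1.37, and 1.43 at 2 h. On chromosome 14 (chr14:71288105-73526065), which holds PCNX1, SIPA1L1 and RGS6, the ratios were 1.301 and 1.373, and on chromosome X (chrX:38494107-40013480), 1.35 and 1.40 from 48 and 65 untreated peaks. In these 3 both readings pointed to more signal in the knockout cells at both times. Copy number itself was not measured.

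In the CD1, SATB1 and MYC stretches the ratios were 0.993 and 0.869, 1.19 and 1.14, and 1.03 and 1.20, and over the zinc finger genes 1.01 and 0.694. Another stretch passed 1.3 in weak peaks in both pairs, at 1.64 and 1.35 (chr3:87137939-94226557), but its regions shifted by 2070.5 places untreated and by −523.5 at 2 h. No stretch stronger in the parental control had fewer weak peaks by that factor in both pairs.

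**Figure D4:**
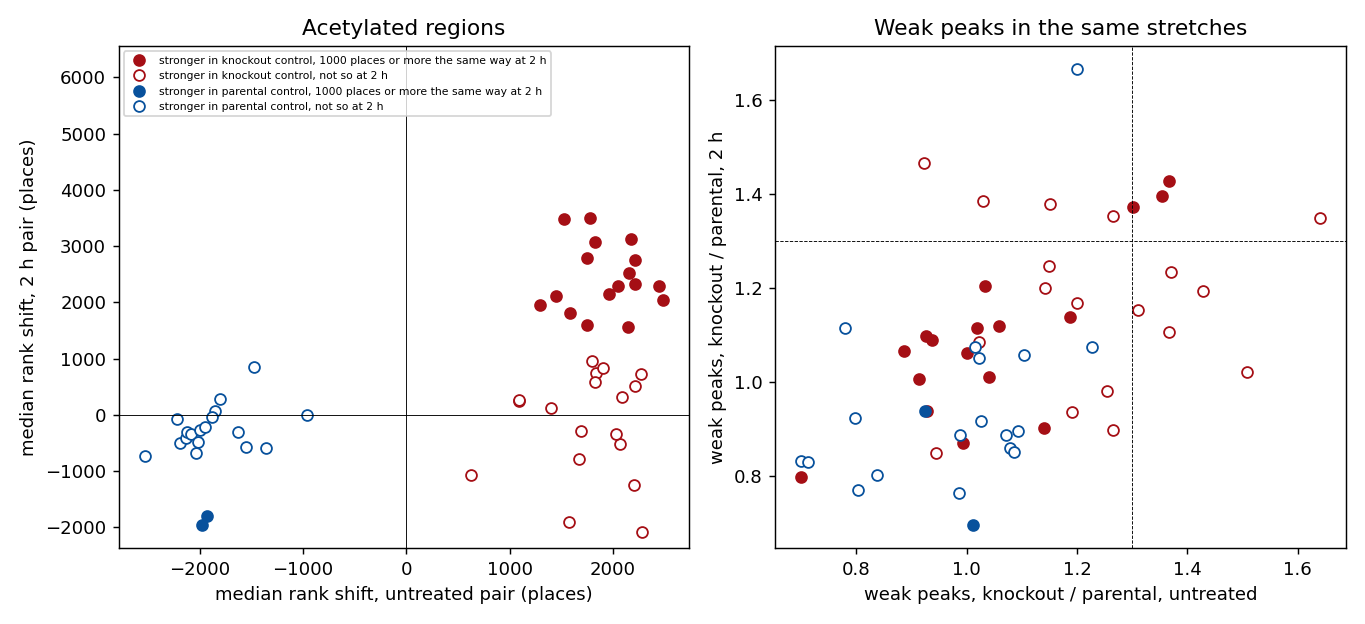
Left, the median rank shift of the 55 stretches in the untreated pair against the 2 h pair, in places, 1 point per stretch, filled where the 2 h shift is at least 1000 places the same way. Right, the ratio of weak peaks of knockout over parental in the same stretches, with dashed lines at 1.3. The 3 filled points beyond both lines are those of chromosomes 12, 14 and X.

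T lineage markers had a region in 14 of 14 genes in both lists, 6 ranked higher in the knockout control and 8 in the parental, with a median shift of −296 places and none beyond 5000. CD3E, a chain of the T cell receptor complex, ranked 6135 in the parental control and 3817 in the knockout control, and CD7 10597 and 13398. Of the markers of other cells, MS4A1 and PAX5 (B cells), CSF1R and MPO (myeloid), GATA1 and HBB (erythroid) and KRT18 (epithelial) had no region. CD79A ranked 4940 and 5407 and SPI1 13468 and 12052. EPCAM was only in the knockout list, at 15853 against 33452 in the parental control.

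Transcription factors of the T lineage numbered 17, of which 16 were in both lists, 9 higher in the knockout control and 7 in the parental, with a median shift of 70.5 places. TAL1, the basic helix-loop-helix oncoprotein of T cell leukemia, ranked 3834 and 4381 in the parental and knockout control, GATA3 6565 and 5080, IKZF1 486 and 357 and TOX 767 and 1442. NOTCH3, a receptor of the Notch pathway, was the 1 that differed by more than 5000 places, at 22265, 16623 and 22279 in the parental and 14044, 14121 and 19452 in the knockout libraries. RUNX3 was only in the parental list, at 20182 against 31489.

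Immediate early genes, which respond within minutes to signals and stress, were compared because the series is about their activation. Of 13 genes, 12 were in both lists, 7 higher in the knockout control and 5 in the parental, with a median shift of 206.5 places. JUN ranked 8596 in the parental control and 7493 in the knockout control, EGR1 7011 and 5110, ATF3 9401 and 9094 and IER2 14252 and 14718. JUNB ranked 4260, 6815 and 5356 in the parental and 6760, 7073 and 7337 in the knockout libraries. EGR2 was the 1 beyond 5000 places, at 20183 and 25575. FOS was only in the knockout list, at 23224 against 32102 in the parental control. Over all regions in both lists, 7.47% and 7.74% shifted by more than 5000 places towards the knockout and the parental control, so 1 of 12 here, like 1 of 16 factors and 0 of 14 markers, is near or below that background and is not a result about these genes.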

How the data were processed

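The series holds 6 H3K27ac libraries of CCRF-CEM cells, 1 per group, and this comparison rests on the 2 untreated ones. For each of them the authors deposited a broad peak list on hg19. Tools named in the submitters' processing notes include BWA 0.7.17 and MACS2 2.1.2, with settings and the control sample not given in the sources used here. In the deposited lists the fold is a ratio over local background, and −log10 p and −log10 q are the authors' values per peak, used only to rank or filter within a list. The deposited score repeats −log10 q and was only checked.

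Peaks on chromosomes 1 to 22 and X were ranked by −log10 p, ties in a seeded random order (58.4% and 69.6% of parental and knockout control peaks share a value). The 30000 strongest of both untreated libraries were merged into 37295 regions, which every library then ranked by its strongest overlapping peak, ties averaged. Coordinates are 1-based. The loci named by rule are those at SLFN11, the 15 strongest peaks marked only in each control, the 10 widest shifts in each direction and the runs of adjacent bins. Other loci outside the gene lists were chosen after their values were seen, whether or not this is said beside them. So were the windows of 20 regions and the stretches and clusters built on them. Some loci and genes that these rules name are not reported here. Members, loci and gene lists were chosen with earlier results of these data known.

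No hg19 annotation was used. Genes were placed from general knowledge of hg19 for 193 genes, of which 193 lay on the same chromosome in the RefSeq table of GRCh38.p14 and 171 of 171 neighbouring pairs in the same order. Where a gene is named for a peak, exon and intron were not assigned. Promoters come from RefSeq (GRCh38.p14), 250 bases before to 50 after a gene's start. Python 3.11.15, pandas 2.3.3 and SciPy 1.17.1 were used, and the peak and bin rules were tested on simulated data.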

Additional observations from a re-analysis of the deposited data

How the results depend on the processing

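The shared percentage of 75.3 became 89.9 with 15000 peaks per library, 63.8 with 50000, 70.1 ranked by fold and 72.4 with an overlap of at least 50% of the peak. Peaks marked only in the knockout and parental control (166 and 156) numbered 7 and 3 among the 10000 strongest, 68 and 60 against 50000 peaks, 17 and 10 against all deposited peaks, 1030 and 900 ranked by fold and 329 and 332 with that overlap. At −log10 q of 5 against 2 there were 256 in the knockout control (list lengths then differ) and 131 in the parental control. Bins with more weak peaks (46) numbered 6 at a ratio of 1.5 and 16 at 10 Mb, and 57 when the weak peaks began after the 50000 strongest; bins with fewer (1) numbered 4 with that start, 0 at a ratio of 1.5 and 0 at 10 Mb. Added after seeing the data, windows of 25 regions gave 163 and 16 in place of 266 and 81, and a shift of 1500 places gave 583 and 319. Another order of ties, also added, left 75.3%, 166 and 156 as they were. The cause of these changes was not tested. No paired analysis was possible because each group has 1 library and no result comes from a test. Depth is unknown, so a peak missing from a list was not detectable there and is not shown to be absent.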
